A study of Mus musculus with 4 samples.

Results

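The transcription factors of the primed epiblast were followed through depletion of Kdm2b in mouse embryonic stem cells. They are 9 genes, Otx2, Pou3f1, Foxd3, Gbx2, Sall2, Zic1, Zic2, Zic4 and Zic5, of 19938 genes measured by a probe set with 1 gene symbol. Each gene is represented by its probe set with the highest mean over the 4 arrays, so the choice of probe set used names and mean levels; the genes themselves were chosen with earlier results of these data known. All 9 were measured, 7 by 1 probe set and 2, Zic4 and Zic5, by 2 probe sets.

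The study compared control cells with cells in which Kdm2b was knocked down, with 2 Affymetrix MoGene 1.0 ST arrays a group. Both groups are E14 embryonic stem cells of inbred strain 129, a single line, grown on gelatin in serum (15%) with leukemia inhibitory factor (LIF) at 1000 units/ml. The treatment protocol, worded alike for every sample, gives lentiviral transduction at 10 MOI (infectious units per cell) and puromycin at 2 µg/ml from 48 h onward. The labels do not name the sequences carried by the knockdown and control vectors. The labels do not state that replicates were separate cultures, so the p-values rest on a spread among samples that may be technical. In a bulk measurement, fewer cells that express a gene and less RNA per cell cannot be told apart.

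Embryonic stem cells in serum and LIF resemble the epiblast of the blastocyst, and on leaving that state they pass to a primed state that resembles the epiblast after implantation. Otx2 and Pou3f1 are known for acting early in that transition, whereas Foxd3 and Gbx2 are also active in stem cells, where Gbx2 is known as a target of LIF signalling. Several of these genes are reused in the neural plate and neural crest. Kdm2b binds unmethylated CG-rich DNA through a zinc finger and brings a variant of Polycomb repressive complex 1 to CpG islands, which is the link to these genes that the series' title raises.

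Because CG dinucleotides are what the zinc finger of Kdm2b recognises, the 250 bases upstream of the start site are shown for both members that passed the test, Foxd3 and Gbx2, and for Zic1, the member with the most CG dinucleotides among the windows read. Sequences are RefSeq's (GRCm38.p6), 5′ to 3′ on the strand of the gene, with every CG in capitals. The windows are chr4:99656049-99656298 (plus strand) for Foxd3, chr1:89931177-89931426 (minus strand) for Gbx2 and chr9:91365769-91366018 (minus strand) for Zic1.
Foxd3: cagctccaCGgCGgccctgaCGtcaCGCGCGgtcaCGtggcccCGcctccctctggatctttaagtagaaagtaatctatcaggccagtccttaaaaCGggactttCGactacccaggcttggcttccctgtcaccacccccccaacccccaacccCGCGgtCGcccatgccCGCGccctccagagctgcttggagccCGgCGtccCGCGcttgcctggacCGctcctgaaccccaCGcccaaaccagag
Gbx2: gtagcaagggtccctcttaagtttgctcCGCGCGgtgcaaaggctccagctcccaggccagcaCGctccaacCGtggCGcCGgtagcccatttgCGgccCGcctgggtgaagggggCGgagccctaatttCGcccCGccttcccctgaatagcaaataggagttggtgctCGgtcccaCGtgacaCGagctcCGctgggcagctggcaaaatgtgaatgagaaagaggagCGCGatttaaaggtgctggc
Zic1: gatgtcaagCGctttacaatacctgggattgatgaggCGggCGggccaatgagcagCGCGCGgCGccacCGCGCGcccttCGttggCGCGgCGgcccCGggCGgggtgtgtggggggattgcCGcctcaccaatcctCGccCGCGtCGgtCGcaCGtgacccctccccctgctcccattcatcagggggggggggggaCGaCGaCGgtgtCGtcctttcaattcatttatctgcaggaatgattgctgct

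The motif counted was CG, which reads the same on both strands. The Foxd3 window held 21, the Gbx2 window 18 and the Zic1 window 27, against a median of 6 over all 32851 upstream windows of that length, of which 92.1% held at least 1. In 85.2% of all windows the count was no higher than in Foxd3, in 80.3% no higher than in Gbx2 and in 92.4% no higher than in Zic1. These 3 were also the members with a window whose GC content was above 50% and whose observed over expected CG ratio was above 0.6. Of 11 windows for 7 members, 3 passed both limits, as did 30.8% of all windows. The other CG counts were 9, 14, 8 and 6 for Otx2, 6 and 0 for Sall2, 4 for Zic4 and 11 for Zic5. Otx2 and Sall2 had several windows, and Pou3f1 and Zic2 none. Zic1, with the most CG dinucleotides, did not pass the test of expression given further on. Its mean log2 value, 7.15, was under the median of all probe sets, 8.52. A relation between the CG count and the change in expression was not tested. No binding was measured on these arrays.

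Foxd3 and Gbx2 rose after Kdm2b knockdown, each to about the same extent, and no member passed the test as lower with the values as deposited. With each array centred on its median, Otx2 and Zic5 passed as lower. Of the 9 factors, 2 were higher (22.2%), 0 lower and 7 neither at an adjusted p under 0.05 (limma, Benjamini-Hochberg over all genes), while 5.00% of all genes tested were higher and 7.19% lower. At an unadjusted p under 0.05 there were 7 of 9 members and 29.8% of all genes. For 8 of 9 members the knockdown arrays lay wholly above or wholly below the control arrays, which was so for 58.8% of all genes. A positive log2 fold change was seen in 6 of 9 members and in 56.9% of all genes. The median log2 fold change of the members was 0.18 and its median size 0.295 (0.03 and 0.115 over all genes). The median log2 fold change of the members was 0.345 without knockdown replicate 2 and 0.115 over the 6 members left when genes with low means were removed. In Kdm2b the control arrays read 10.74 and 10.64 and the knockdown arrays 9.20 and 9.19, a level 2.82-fold lower by the group means (adjusted p = 0.0039, limma).

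**Figure D1:**
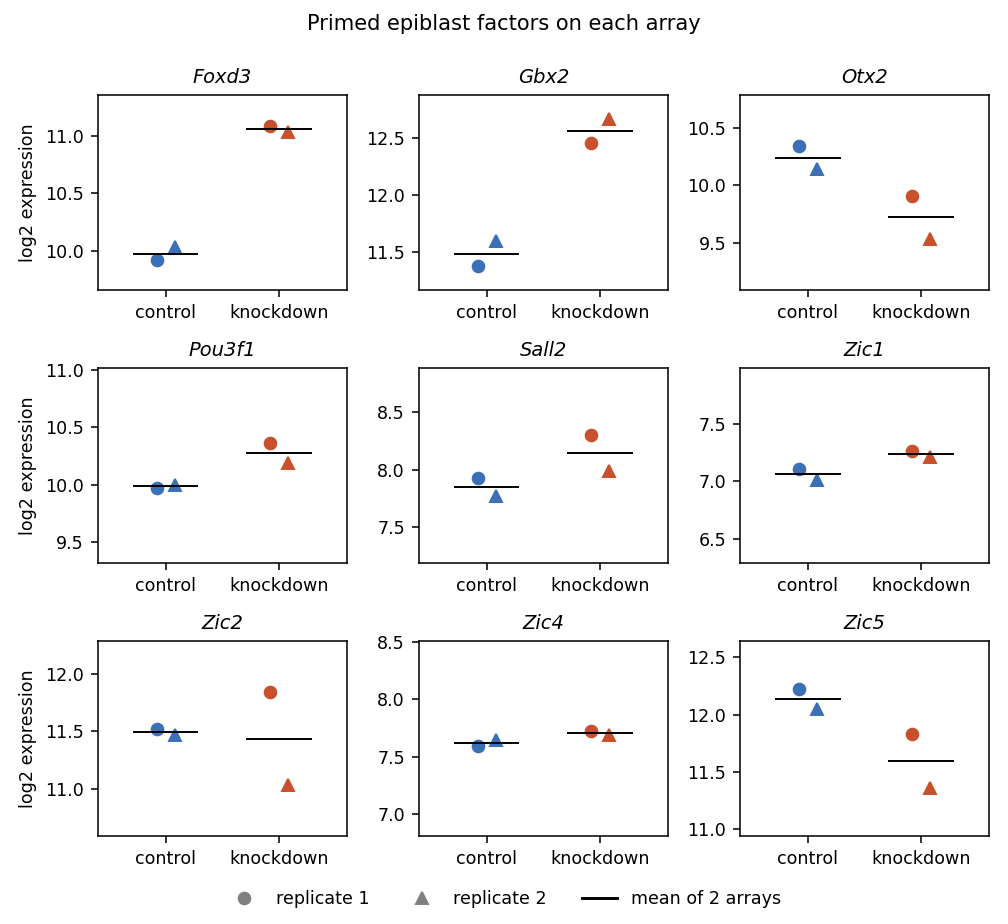
Log2 expression of the 9 factors on each array, with circles for replicate 1, triangles for replicate 2, blue for control, red for knockdown and a line at the mean of 2 arrays; every panel spans the same height in log2 units, so distances can be compared between panels. The knockdown arrays of Foxd3 and Gbx2 lie far above the control arrays, and those of Zic2, at 11.84 and 11.03, lie on either side of them.

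Foxd3, a forkhead repressor needed to maintain the epiblast and to specify neural crest, was measured by probe set 10506150. In control cells its log2 expression was 9.92 and 10.03, and in knockdown cells 11.09 and 11.03 (9.975 ± 0.078 and 11.06 ± 0.042, SD, n = 2 each). Both knockdown arrays were high, by far more than replicates differed. The log2 fold change was 1.085 (SE 0.07, 95% interval 0.91 to 1.26, adjusted p = 0.0049, limma), or 2.12-fold, larger in size than in 99.6% of genes.

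Gbx2, a homeobox factor that positions the boundary between midbrain and hindbrain in the embryo, was measured by probe set 10356484. It stood at 11.38 and 11.60 in control cells and at 12.45 and 12.66 in knockdown cells (11.49 ± 0.16 and 12.555 ± 0.15, SD, n = 2 each). Replicate 2 was the higher array in both groups, by 0.22 in control and 0.21 in knockdown cells, and the groups did not overlap. Gbx2 rose by 1.065 on the log2 scale (SE 0.11, 95% interval 0.80 to 1.33, adjusted p = 0.0071, limma), or 2.09-fold. With any single array left out, the log2 fold change was 1.03 to 1.14 for Foxd3 and 0.955 to 1.175 for Gbx2.

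Otx2, the homeobox factor known for driving exit from the stem cell state and for forebrain development, had lower values in knockdown cells without passing the threshold. Its control arrays read 10.34 and 10.14 and its knockdown arrays 9.91 and 9.53. The groups did not overlap, and the knockdown arrays were further apart (0.38) than the control arrays (0.20). Its log2 fold change was -0.52 (SE 0.14, 95% interval -0.86 to -0.18, adjusted p = 0.0654, limma), and it passed with each array centred on its median (-0.56, adjusted p = 0.0376). Without knockdown replicate 2 the value was -0.33.

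Pou3f1, a POU factor also called Oct6 that appears early in the primed state, was 9.97 and 10.00 in control cells and 10.36 and 10.19 in knockdown cells. Both knockdown arrays lay above both control arrays. The log2 fold change of 0.29 (SE 0.078, 95% interval 0.10 to 0.48) had an adjusted p of 0.0665 in limma, and of 0.0489 when genes with a mean log2 value under 8.52 were removed before the test. Sall2, a zinc finger factor of the spalt family, was 7.93 and 7.77 in control and 8.30 and 7.99 in knockdown cells. Its groups lay side by side without overlap, and its log2 fold change of 0.295 (SE 0.12, 95% interval 0.01 to 0.58) did not pass (adjusted p = 0.161, limma). The value of Sall2 was 0.14 without knockdown replicate 1.

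**Figure D2:**
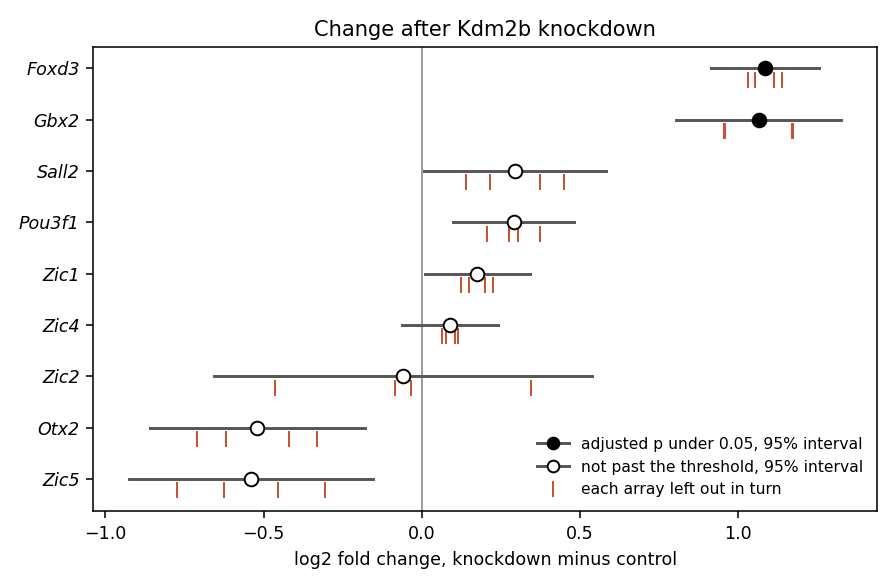
Log2 fold change of each factor (knockdown minus control, dots) with its 95% interval from limma (horizontal lines), filled where the adjusted p was under 0.05, and the values with each array left out in turn (red ticks). Foxd3 and Gbx2 stand near 1.1 with all ticks above 0.9, and the ticks of Zic2 run from -0.465 to 0.345.

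The Zic genes encode zinc finger factors of the neural plate and the embryonic midline, and they lie in pairs, Zic1 beside Zic4 on chromosome 9 and Zic2 beside Zic5 on chromosome 14. Of the 4 members of this family none passed the threshold, and the pairs differed in how their arrays lay. Zic1, known for cerebellar and neural crest development, was 7.11 and 7.01 in control and 7.26 and 7.21 in knockdown cells. Zic4 was 7.59 and 7.64 in control and 7.72 and 7.69 in knockdown cells. Both knockdown arrays were thus slightly above both control arrays for each gene of the chromosome 9 pair, with a log2 fold change of 0.175 for Zic1 (95% interval 0.01 to 0.34, adjusted p = 0.151, limma) and 0.09 for Zic4 (95% interval -0.06 to 0.24, adjusted p = 0.379). With quantile normalization the values were 0.129 for Zic1 and 0.0325 for Zic4. Zic1, Zic4 and Sall2 had means under 8.52, the median of all probe sets.

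Zic2, known for forebrain and midline development, did not behave alike on the knockdown arrays. It was 11.52 and 11.47 in control cells, and 11.84 and 11.03 in knockdown cells, 1 array above and 1 below both controls. The log2 fold change of -0.06 (SE 0.24, 95% interval -0.66 to 0.54, adjusted p = 0.896, limma) therefore averages opposite deviations: leaving out knockdown replicate 2 gave 0.345, and leaving out knockdown replicate 1 gave -0.465. Its difference of 0.81 between knockdown replicates was larger than that of 99.9% of genes, while its control replicates differed by 0.05.

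Zic5 was measured by 2 probe sets that disagreed in size. The brighter one, 10376241, was 12.22 and 12.05 in control and 11.83 and 11.36 in knockdown cells. All knockdown values lay below all control values, and the log2 fold change was -0.54 (SE 0.16, 95% interval -0.93 to -0.15, adjusted p = 0.08, limma). It passed with each array centred on its median (-0.58, adjusted p = 0.0478). Without knockdown replicate 2 the value was -0.305.

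The other Zic5 probe set, 10422504, was 10.54 and 10.50 in control and 10.42 and 10.17 in knockdown cells. Its groups also did not overlap, and the log2 fold change was -0.225 (SE 0.095, adjusted p = 0.178, limma). The platform annotation gives both as Zic5, but probe set numbers on this array largely follow the chromosomes, and of the 20 named probe sets nearest in number to 10376241, 19 carried genes of chromosome 11 and 0 genes of chromosome 14, where Zic5 lies. For 10422504, 14 of 20 were genes of chromosome 14. What the brighter probe set reads was not tested, and the value for Zic5 is uncertain to that extent.

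Several members stood far apart on the knockdown replicates. The knockdown arrays differed by a median of 0.21 over the 9 factors and of 0.08 over all genes, and the control arrays by 0.11 and 0.08. In 8 of 9 members, Gbx2 being the exception, knockdown replicate 2 was below knockdown replicate 1, as it was for 49.9% of all genes. Zic2, Zic5 (0.47), Otx2 (0.38) and Sall2 (0.31) differed most, and Foxd3 (0.06), Zic1 (0.05) and Zic4 (0.03) least. The value for Zic5 is that of its brighter probe set, whose target is uncertain. On the other Zic5 probe set the knockdown arrays were closer together, at 10.42 and 10.17.

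Most markers of primitive endoderm, the extraembryonic lineage directed by Gata6, lay the other way on the same arrays. Gata6 was 11.74 on knockdown replicate 1 and 12.60 on knockdown replicate 2, against 10.07 and 10.04 in control cells. Over the 18 markers the median difference of knockdown replicate 1 minus 2 was -0.14. The difference was positive for Hnf4a (0.33) and Amn (0.03) and 0 for Ttr. It was small for Dab2 (-0.10), Srgn (-0.08) and Col4a1 (-0.03). The control arrays were also far apart for Dab2 (0.74), Srgn (0.81) and Cubn (0.94). Their summed level, the sum of the values taken off the log scale, was 24123 and 20595 in control and 31194 and 37488 in knockdown cells, and 3 of 18 had means under 8.52. The part of this marker difference in the spread of Zic2, Otx2 and Zic5 was not tested.

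**Figure D3:**
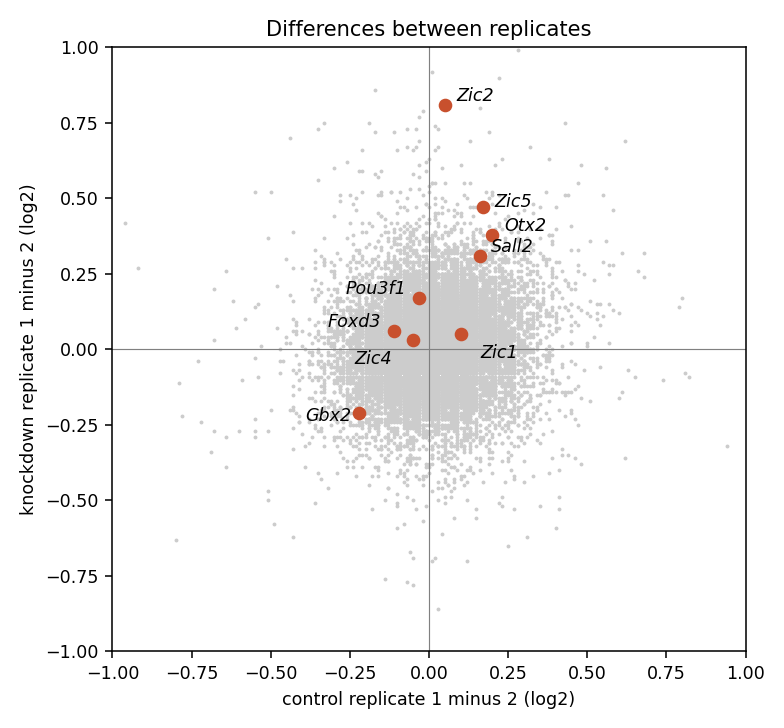
Replicate 1 minus replicate 2 on the log2 scale in control cells (horizontal axis) and knockdown cells (vertical axis), with every gene as a grey dot and the 9 factors in red; 5 genes lie beyond the axes. Zic2, Zic5, Otx2 and Sall2 lie at the upper edge of the cloud, from 0.31 to 0.81, and Gbx2 lies below 0 on both axes. Zic5 is plotted from its brighter probe set.

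The close relatives of the members in each gene family did not pass the test, in which 5.00% of all genes were higher and 7.19% lower. Of 12 measured (Otx1, Crx, and further POU class 3, Foxd, Gbx and Sall genes), 0 were higher or lower by limma, 9 had a positive log2 fold change, and the median was 0.10, or 0.057 after quantile normalization and 0.06 with arrays centred on their medians. The largest values belonged to Sall3 (9.15 and 9.02 in control, 9.47 and 9.34 in knockdown cells; log2 fold change 0.32, adjusted p = 0.0556) and Pou3f3 (0.25, adjusted p = 0.0587). When genes with low means were removed, 6 relatives were left and 2 of them, Sall3 and Pou3f3, passed as higher. At an adjusted p under 0.1 in limma, 3 of the 12 relatives were higher and 0 lower.

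The list of other genes known from the primed epiblast held factors, enzymes and surface proteins. Of 26 measured, 8 were higher, 1 lower and 17 neither, with a median log2 fold change of 0.15 (0.03 over all genes). The shares of all genes were 5.00% higher and 7.19% lower. Tcf15, a bHLH factor linked to priming, was 10.21 and 10.49 in control and 11.35 and 11.36 in knockdown cells, a rise of 1.005 (adjusted p = 0.0071, limma). Eomes, a T-box factor of streak and trophoblast, rose by 0.915, the Wnt effector Lef1 by 0.80 and the ephrin receptor gene Epha2 by 0.69. The gene that fell was Car14, a carbonic anhydrase gene, named here after its value was seen (8.92 and 8.82 in control, 8.53 and 8.46 in knockdown cells). For each of the genes that rose and are named here the knockdown arrays lay above the control arrays. They were named for passing the test as higher, which favours this. Groups did not overlap, in either direction, for 58.8% of all genes.

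Signals of the Nodal, FGF, BMP and Wnt pathways act on the epiblast. Of 22 of their genes measured, 3 were higher, 1 lower and 18 neither (all genes: 5.00% higher, 7.19% lower). Their median was 0.15 (0.03 over all genes). Leaving out control replicate 1 gave a median of 0.055, and leaving out knockdown replicate 1 gave 0.08. The inhibitory Smad gene Smad7 rose by 0.625 (11.22 and 11.36 in control, 11.94 and 11.89 in knockdown cells), the ligand gene Bmp4 by 0.61 and Dusp6, a phosphatase induced by ERK signalling, by 0.425, while Acvr2b, an activin and Nodal receptor, fell by 0.34 (adjusted p = 0.0482, limma).

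Genes of the naive state, the state of the blastocyst epiblast, had a median below 0. Of 16 measured, 0 were higher, 5 lower and 11 neither (all genes: 5.00% higher, 7.19% lower). A positive log2 fold change was seen in 6, against 56.9% of all genes. The median was -0.09 (0.03 over all genes), or -0.015 with genes of low mean removed. The largest positive values, looked up after the values were seen, were those of Klf4 (0.30, adjusted p = 0.0514, limma) and Nr5a2 (0.28, adjusted p = 0.0716). With quantile normalization, an intensity trend or genes of low mean removed, 1 gene of the list was higher. Tfap2c was 10.72 and 10.58 in control and 9.30 and 8.93 in knockdown cells, or -1.535 on the log2 scale (adjusted p = 0.0056, limma). Dppa3 fell by 0.985, the endothelial and stem cell adhesion gene Pecam1 by 0.775 and the Kruppel-like factor Klf2 by 0.75. Dppa3 had a mean under 8.52.

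The label of the cells was checked with 12 embryonic stem cell markers, of which 1 had a mean under 8.52. The summed level of the list was 106061 and 105767 in control and 105345 and 107179 in knockdown cells, so the groups overlapped. Of the 12, 0 were higher, 1 lower and 11 neither (all genes: 5.00% higher, 7.19% lower). Lin28a, an RNA-binding protein gene that restrains let-7, fell by 0.90 (12.20 and 12.12 in control, 11.15 and 11.37 in knockdown cells; adjusted p = 0.0071, limma).

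Since Otx2, Gbx2, Foxd3 and the Zic genes also work in neural tissue, neural progenitor markers were set beside them. Of 19 measured, 3 were higher, 1 lower and 15 neither (all genes: 5.00% higher, 7.19% lower). The median was 0.12 (0.03 over all genes), and 9 had means under 8.52. The intermediate filament gene Nes rose by 0.715, En2 by 0.60 and En1 by 0.27, the engrailed genes being markers of the midbrain and hindbrain. Pax6, a regulator of eye and forebrain, was 9.28 and 9.12 in control and 8.41 and 8.39 in knockdown cells and fell by 0.80. The summed level of these markers was 9355 and 9158 in control and 9731 and 9578 in knockdown cells, and the part of any neural cells in the rise of Foxd3 and Gbx2 was not tested.

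Of the 18 primitive endoderm markers, 6 were higher, 0 lower and 12 neither (all genes: 5.00% higher, 7.19% lower). Their median was 0.48 (0.03 over all genes). Gata6 rose by 2.115, the endocytic adaptor gene Dab2 by 1.12, Srgn, a proteoglycan gene, by 1.025 and Col4a1, a collagen gene of basement membranes, by 0.535. The control arrays of Srgn were far apart, at 11.66 and 10.85, and its value was 0.62 without control replicate 2. For Dab2 the average of its probe sets gave 0.65. Counts from fits with any array left out are not set beside these, since such fits have 1 array in a group.

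**Figure D4:**
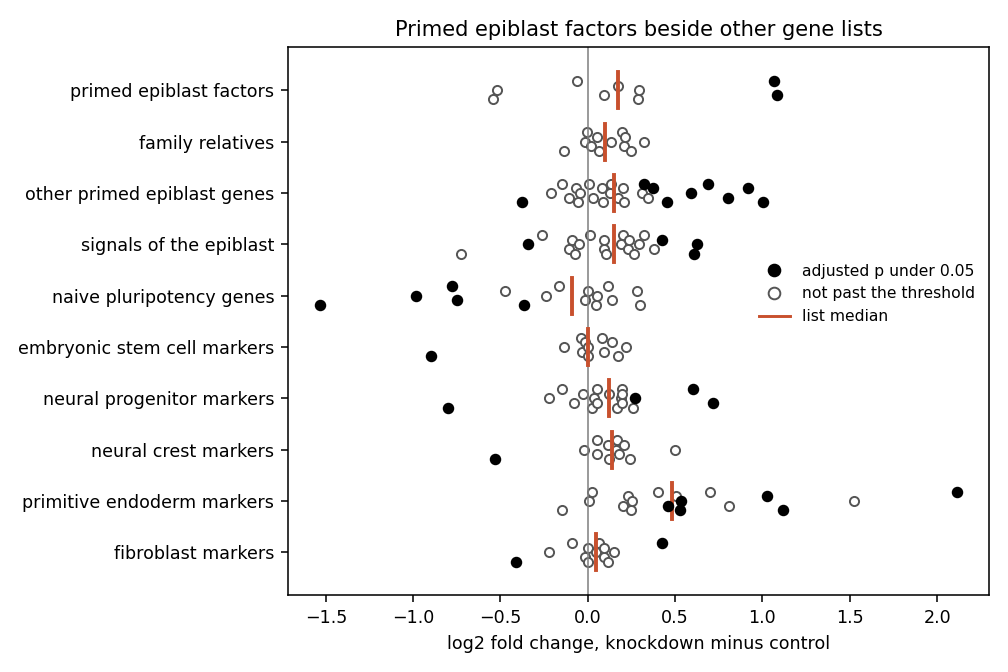
Log2 fold change (knockdown minus control, horizontal axis) of each measured gene of 10 lists, filled where the adjusted p was under 0.05, with the list median as a red line. Among the primed epiblast factors the filled points are Foxd3 and Gbx2, and the naive pluripotency genes have filled points below 0 and none above.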

How the data were processed

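The deposited table holds log2 expression of 35557 probe sets on 4 arrays, made by the authors in the Affymetrix Expression Console according to the submitters' processing notes. No source used here gives its background step, summary method or scaling between arrays. The log2 scale was read from the values (3.12 to 14.74, 2 decimals; array medians 8.49 to 8.55). With 2 arrays a group, their number limits how precise any value is.

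Gene symbols came from the platform annotation (21789 with 1 symbol, 1621 with several, 12147 with no entry). All 9 members matched the RefSeq table by Entrez ID. Levels served to choose a gene's probe set and to mark or filter low means, and were not used to rank genes. The groups were compared in R 4.3.3 with limma 3.58.1 (lmFit, eBayes, group as the only term, two-sided, prior of 3.9 degrees of freedom). Standard errors are moderated. The procedure was run on simulated data with independent replicates, which cannot show whether the replicates here were separate cultures.

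The members and lists were chosen with earlier results of these data known. Named genes are the members, Kdm2b, up to 4 genes past the threshold from each list (or 2 as values) and, for each member that passed, the 2 genes with the nearest profile, with clone names, predicted genes, short RNAs and genes of smell receptors left out. Alternatives were a replicate block, each array left out, quantile normalization, median centring, a filter on low means (log2 value above 8.52), averaging the probe sets of a gene, every probe set with 1 symbol, an intensity trend, a robust prior and an adjusted p under 0.1. The use of the other Zic5 probe set was added after seeing the data.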

Additional observations from a re-analysis of the deposited data

How the results depend on the processing

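Kdm2b, Otx2, Pou3f1, Foxd3, Gbx2, Sall2, Zic1, Zic4 and Zic5 kept their direction under all alternatives run, while Zic2 took values of -0.465 to 0.345 on leaving out arrays and was positive without Kdm2b knockdown replicate 2. Zic1, Zic4 and Sall2 have no value with dim genes removed, since that filter takes them out. With each array left out in turn, limma called 0 genes higher, 0 lower and 0 members, while 3495 to 4215 had an unadjusted p under 0.05 (5941 in the fit of 4 arrays); these fits have 1 array in an arm, assumed to vary like the other group. Kdm2b, the gene targeted, then ran from -1.545 to -1.445 and was not called either. These fits have fewer residual degrees of freedom than the 2 of the main fit. Their loss of calls therefore cannot show which changes are unsteady. The deviations of same-numbered arrays correlated at 0.0954 across genes, which cannot decide whether arrays of the same number belong together. With the replicate block limma called 0 genes higher and 0 lower (5411 at an unadjusted p under 0.05) and 0 members. Kdm2b at -1.495 then had an adjusted p of 0.127. The block leaves fewer residual degrees of freedom than the 2 of the main fit, so the loss of calls does not show larger spread. Under it the SE went from 0.066 to 0.049 for Kdm2b and from 0.107 to 0.040 for Gbx2. With each array centred on its median, 2 members were lower (Otx2 and Zic5), and the count of genes was 841 higher and 1866 lower against 997 and 1434. At an adjusted p under 0.1 there were 1920 genes higher and 2236 lower, with 2 members lower (Otx2 and Zic5) and 3 higher (Pou3f1 besides Foxd3 and Gbx2). Averaging the probe sets of Zic5 gave -0.38. Apart from what is given here, the cause of these changes was not tested.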

Other observations

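Genes whose profile over the 4 arrays lay nearest to that of Foxd3 or Gbx2 were looked up among 17054 named genes, by the root mean square difference of values taken minus each gene's own mean. Nearest to Foxd3 were Gpr83, a G protein-coupled receptor gene (log2 fold change 1.07; difference 0.045), and Def6 (0.06), a guanine nucleotide exchange factor gene. Nearest to Gbx2 were Fbp1, the gluconeogenic fructose bisphosphatase (8.03 and 8.22 in control, 9.10 and 9.33 in knockdown cells; difference 0.018), and Ankrd34a (0.058). All 4 were higher in knockdown cells by limma, as they had to be to resemble Foxd3 or Gbx2.

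Neural crest is a cell type in which Foxd3 and Zic1 are known to act. Its markers gave 0 higher, 1 lower and 11 neither of 12 measured, while 5.00% of all genes were higher and 7.19% lower. Positive log2 fold changes numbered 10, against 56.9% of all genes. The median was 0.14 (0.03 over all genes), or 0.078 without control replicate 2. With each array centred on its median 1 was higher. The gene that passed was Mitf, a regulator of pigment cells, which was 11.01 and 10.74 in control and 10.42 and 10.27 in knockdown cells and fell by 0.53. The summed level of the list was 8531 and 8313 in control and 9840 and 8632 in knockdown cells, and 5 of 12 had means under 8.52. Of 13 fibroblast markers 1 was higher (Twist1, 0.425), 1 lower (Acta2, -0.41) and 11 neither, beside 5.00% higher and 7.19% lower over all genes.

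Zic4 also had a second probe set, 10554140, at 7.27 and 7.28 in control and 7.46 and 7.40 in knockdown cells. Of the 20 named probe sets nearest to it in number, 19 carried genes of chromosome 7 and 0 genes of chromosome 9, where Zic4 lies, whereas for the probe set used here 19 of 20 were genes of chromosome 9.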
